A study of Mus musculus with 7 samples.

Results

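Of the 8906 nuclear genes with at least 50 reads in this data set, 6 protein-coding genes described here were selected on their antisense share, the percentage of their reads that came from the strand opposite to the mRNA: Pcbp1, Prr36, Cd248, Ppp1r18, Mid1 and Nlrp12. In all, 27812 annotated genes had a read. They are 6 of 1399 nuclear genes in which that share was above 50%, and together they held 7693 antisense reads and 494 sense reads. Since the share chose them, it is given here as a description, without a test. The results below turn to where along each gene the antisense reads lie, which annotated genes lie opposite, and what sequence is under the peaks.

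The libraries were made by RIP-seq of Ezh2, the enzyme of the Polycomb complex PRC2 that methylates histone H3, in LIF-grown mouse embryonic stem cells. In this assay a protein is captured from a nuclear lysate with an antibody and protein A beads, and the RNA recovered with it is turned into cDNA, here by template switching, and sequenced. The labels describe 5 libraries with anti-Ezh2 antibody on cells of strain 129X(M.castaneusX129), among them a technical replicate, a biological replicate and 2 deeper sequencing runs of 2 lanes each, made from the first sample and from the biological replicate. They describe 1 library with the same antibody on Ezh2-null cells of strain M.musculus, and 1 with IgG on cells of strain 129X(M.castaneusX129). The read counts used here come from 1 table of read sequences whose library is not named in the labels, so it is treated as 1 pool: there are no replicates, no SD, and no comparison of Ezh2 with Ezh2-null cells or with IgG. In such a pool, more cells with an RNA and more of that RNA per cell cannot be told apart.

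The table held 34072479 reads of 6540936 distinct sequences. Of the 31529044 reads long enough to be searched against annotated transcripts, 7.84% matched 1 gene in antisense, 28.2% matched 1 gene in sense, 11.3% matched several genes and 52.6% matched no transcript. Over all nuclear genes, 13.7% of the reads given to a gene were antisense. Of 10 markers of embryonic stem cells fixed in a list, 9 had at least 50 sense reads (37 to 66761 reads). All 10 markers of fibroblasts and pericytes did too (70 to 39714 reads), and 2 of 7 markers of myeloid cells did (0 to 68 reads, with Mpo and S100a8 at 0). Intervals given are 95% intervals for counting error only, since reads without molecular identifiers are not independent molecules.

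Natural antisense transcripts are RNAs copied from the strand opposite to a gene. They may begin at a promoter of their own, at a neighbouring gene that is read through, or as the long primary transcript of a microRNA. In embryonic stem cells Polycomb complexes are known for repressing developmental genes, and many RNAs have been recovered with PRC2. The products of the 6 genes are unrelated: a poly(C)-binding RNA regulator, a proline-rich protein, a membrane glycoprotein of mesenchymal cells, a phosphatase subunit, a RING-type ubiquitin ligase and an innate immune receptor.

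Pcbp1 had 2851 antisense reads (2747 to 2958) and 121 sense reads (100.4 to 144.6). Prr36 had 1997 antisense reads and 17 sense reads. Cd248 had 990 antisense reads and 133 sense reads. In each of these 3 genes the antisense reads fell almost wholly inside the coding sequence. Ppp1r18 had 769 antisense reads and 142 sense reads. Mid1 had 685 antisense reads and 68 sense reads. Nlrp12 had 401 antisense reads and 13 sense reads. These 3 genes carried their antisense reads in untranslated regions instead. The antisense share was 99.2% in Prr36 (98.7% to 99.5%), 96.9% in Nlrp12 (94.7% to 98.3%) and 95.9% in Pcbp1 (95.2% to 96.6%). It was 91.0% in Mid1 (88.7% to 92.9%), 88.2% in Cd248 (86.1% to 89.99%) and 84.4% in Ppp1r18 (81.9% to 86.7%). The gene with the lowest share thus stood far above the 13.7% of all nuclear genes, as the choice of the genes required.

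**Figure D1:**
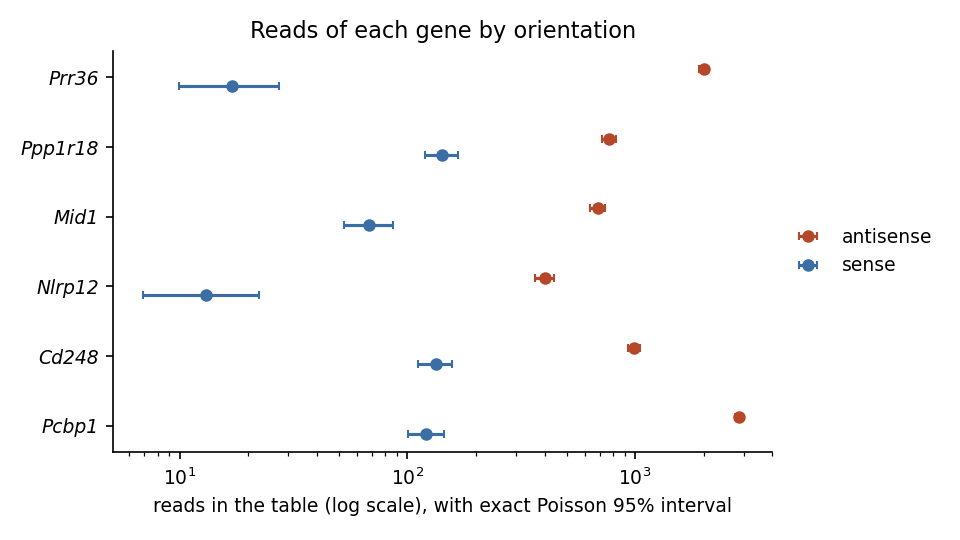
Reads of each of the 6 genes in the pooled table, antisense above sense within each gene, on a log scale; bars are exact Poisson 95% intervals. The antisense points run from 401 reads in Nlrp12 to 2851 reads in Pcbp1, and the sense points from 13 reads in Nlrp12 to 142 reads in Ppp1r18.

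Levels in RPKM (reads per kb of a gene's merged exons, for every 1000000 reads searched) put the genes on 1 scale. The antisense reads lay mostly in stretches shorter than the merged exons, which measured 1830 bases in Pcbp1 and 7545 in Nlrp12. Antisense RPKM therefore also depends on exon length. Antisense levels covered a wide range. Pcbp1 stood at 49.4 RPKM in antisense and 2.10 RPKM in sense. Prr36 came next with 12.95 RPKM in antisense and 0.110 RPKM in sense, close to Cd248 with 12.1 RPKM in antisense and 1.62 RPKM in sense. Ppp1r18 had 5.65 RPKM in antisense and 1.04 RPKM in sense, and Mid1 had 3.23 RPKM in antisense and 0.321 RPKM in sense. Nlrp12 was the lowest, at 1.69 RPKM in antisense and 0.0546 RPKM in sense. The sense levels had another order than the antisense levels, with Pcbp1, Cd248 and Ppp1r18 above 1 RPKM and the other 3 genes below it.

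A gene was called antisense when the exact interval of its antisense share lay above 50%. By reads, all 6 genes were called, against 15.7% of the 8906 nuclear genes tested. Counting each start position once, where a start position is the genome base at the first matched base of a read, all 6 were called, against 4.38% of nuclear genes. Counting each distinct sequence once, all 6 were called, against 9.05%. These counts restate the choice of the genes and are read no further. Pcbp1 had 55 antisense and 25 sense start positions, Cd248 had 72 and 45, and Ppp1r18 had 86 and 43, so that in these 3 genes the antisense share by positions was lower than by reads, at 68.8%, 61.5% and 66.7%. Prr36 had 94 antisense and 5 sense positions (94.9%), Nlrp12 had 79 and 6 (92.9%), and Mid1 had 75 and 14 (84.3%).

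Pcbp1 encodes a poly(C)-binding protein that binds RNA through KH domains and takes part in mRNA stability and translation. It is an intronless gene of chromosome 6 (GRCm38, bases 86524492 to 86526321, minus strand). Of its antisense reads, 99.6% started in coding sequence, and 2578 (90.4%) fell in 1 peak of 132 bases (86525190 to 86525321), where start positions within 40 bases of each other were merged. The peak held 16 start positions, and 6 of them carried 2355 reads, 82.6% of all antisense reads of the gene. Those 6 starts formed 3 clusters. The first cluster lay at transcript bases 1053, 1054 and 1056, with 107, 715 and 359 reads. The second lay at bases 1086 and 1087, with 356 and 399 reads, and the third at base 1117, with 419 reads. The clusters thus began 33 and 64 bases after the first start, and each had reads of both lengths in the table.

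A frequent read sequence of each of the 3 Pcbp1 clusters is shown to give the letters at which the reads begin. An antisense read has the same letters as the mRNA. The first 30 matched bases are given 5′ to 3′, as they stand in the table and on the minus strand of chromosome 6, and capitals mark the longest run of C and T.
Pcbp1 at 86525239-86525268, 383 reads: accaCCTCTagacgcctactcgattcaagg
Pcbp1 at 86525206-86525235, 296 reads: acacaccaTTTCTCCgctggatctggccaa
Pcbp1 at 86525176-86525205, 277 reads: gctgaaccaggtggcaagacaacagTCTCa
The 3 windows follow one another along the coding sequence with at most 3 bases between neighbours. No base of the peak was low-complexity by dustmasker, which marks simple repeats, while 14.5% of the whole Pcbp1 transcript was. C and T made up 51.5% of the peak and 51.8% of the transcript. No antisense read and no sense read of Pcbp1 matched another gene equally well, and 94.3% of the antisense reads matched without a mismatch. The lncRNA gene 1600020E01Rik, on the plus strand, overlaps the 5′ end of Pcbp1 and begins 979 bases from its leading start position. It had 15 sense reads of its own. Reads that fit its transcripts in sense were given to it, so few Pcbp1 antisense reads could start inside it, and none did.

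Prr36 encodes a proline-rich protein and lies on chromosome 8 (bases 4209543 to 4217459, minus strand). All but 1 of its 1997 antisense reads started in coding sequence, and 1893 (94.8%) fell in a single peak of 145 bases in exon 6 of 7 (4214119 to 4214263). The peak held 62 start positions. The leading start, 4214193, had 394 reads, and its 4 next ranking starts lay within 3 bases of it, with 316, 296, 177 and 125 reads. Only 3 sense reads started in the peak or within 50 bases of it. C and T made up 76.4% of the peak's bases, against 59.0% of the whole transcript, and the median distinct antisense read of Prr36 was 70.6% C and T.

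A pair of the frequent Prr36 reads, from the leading start and from the cluster nearer the 3′ end, show this composition (minus strand, capitals as above).
Prr36 at 4214164-4214193, 62 reads: tttccccgcagaatttgcccaCTTCCCTTg
Prr36 at 4214108-4214137, 37 reads: aCTCCTTTCCgggccaacttttctgagtct
No base of the Prr36 peak was low-complexity, 90.9% of antisense reads matched without a mismatch, and no antisense read of Prr36 matched another gene equally well. The neighbouring gene Evi5l, a TBC-domain gene on the plus strand with 931 sense reads and 31 antisense reads, runs into the 3′ part of Prr36. Its annotated 3′ end was 2936 bases short of the leading start. Reads that fit Evi5l in sense were given to Evi5l, and 1 of the Prr36 antisense reads (0.0501%) started inside its span. The peak thus lay downstream of Evi5l in the direction in which Evi5l is read. Between the annotated end of Evi5l and the peak, the 8 smaller peaks within exon 6 of Prr36 on that side held 1 to 8 reads each.

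Cd248 encodes endosialin, a membrane glycoprotein of pericytes and other mesenchymal cells. It is a single-exon gene of chromosome 19 (5068078 to 5070682, plus strand). All 990 antisense reads started in coding sequence, and 969 (97.9%) lay in 1 peak of 423 bases (5069459 to 5069881) with 63 start positions. The leading start, 5069717, had 298 reads, or 30.1% of the antisense reads. Its neighbours 5069718 and 5069716 had 173 and 89 reads, and a separate start 15 bases on, at 5069732, had 137 reads. Of these 4 starts it alone had no read of 36 bases. Sense reads of Cd248 were also frequent here, with 63 of 133 (47.4%) inside or within 50 bases of the same stretch, at 15 start positions against 63 in antisense.

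Reads from the start at 5069732 and from the next cluster are shown for the coding stretch they name (plus strand, capitals as above).
Cd248 at 5069732-5069761, 113 reads: actatccccaagTCTTCCCTCCCCaccagg
Cd248 at 5069779-5069808, 16 reads: acccacactatcacttatttgCCTCCagtc
The median distinct antisense read of Cd248 was 67.6% C and T, against 52.6% of the transcript, and none of the peak was low-complexity. No gene is annotated on the other strand across Cd248. The nearest, Tmem151a, ends 1142 bases from the leading start, with 12 sense reads and 24 antisense reads. It lies wholly beyond Cd248, so no Cd248 read could start inside it.

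**Figure D2:**
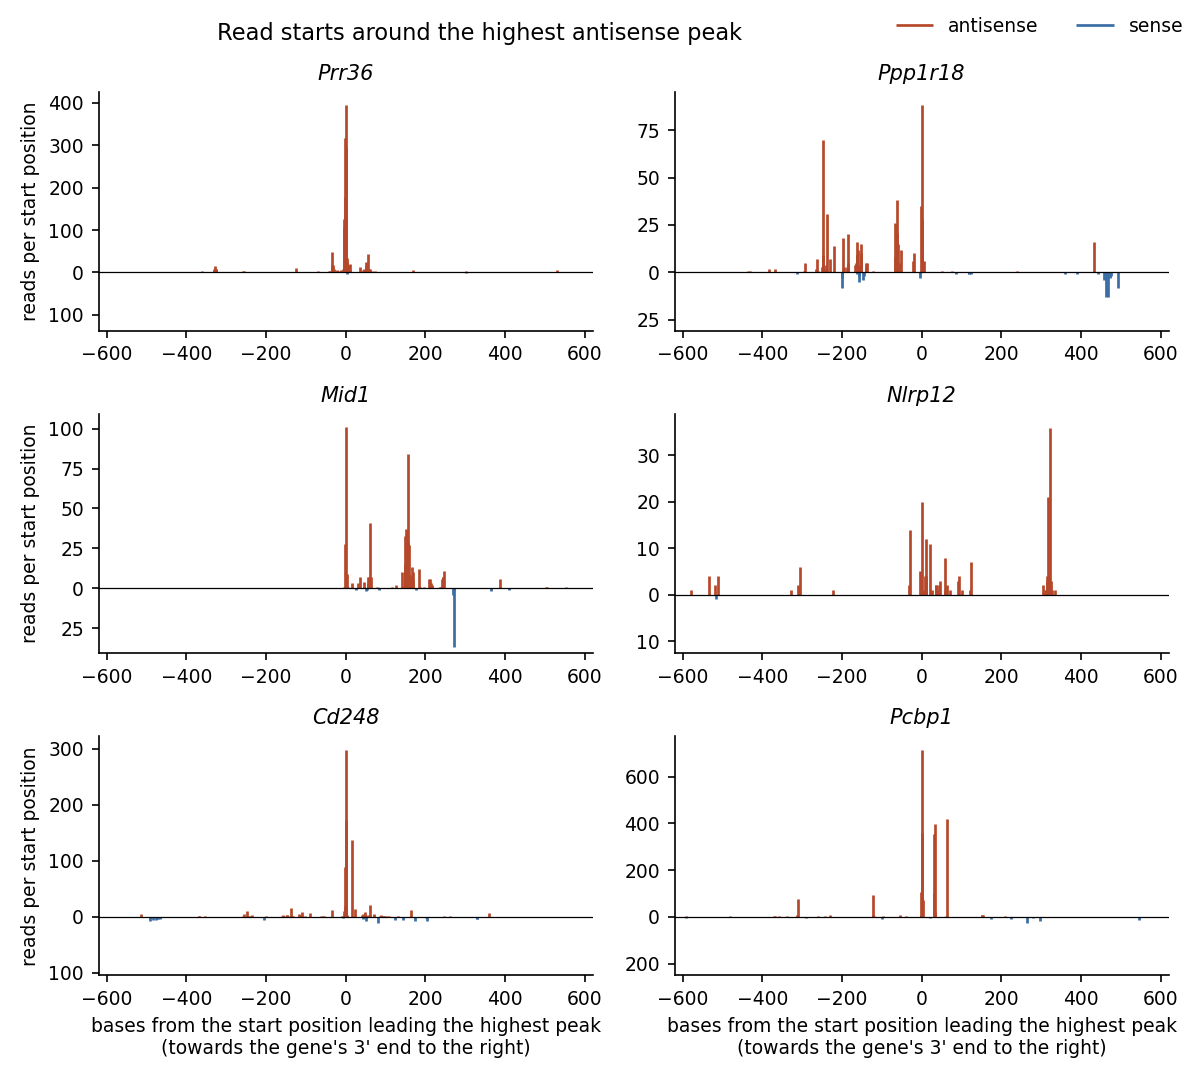
Read starts within 600 bases of the leading start of the highest antisense peak, for the 6 genes, antisense above the line and sense below; each panel has its own scale, and the gene's 3′ end is to the right. Prr36 and Pcbp1 show a few sharp antisense positions and Nlrp12 several lower ones. Sense starts lie within the window in Pcbp1, Cd248, Mid1 and Ppp1r18, and hardly any do in Prr36 and Nlrp12.

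Ppp1r18 encodes phostensin, a regulatory subunit of protein phosphatase 1 that binds actin. It lies on chromosome 17 (35865593 to 35875596, plus strand). Here 743 of the antisense reads (96.6%) started in the upstream untranslated region, most of them in 3 peaks. The highest, at 35867085 to 35867159, held 348 reads (45.3%). The second, at 35866859 to 35867030, held 314 reads (40.8%), and the third, at 35866097 to 35866216, held 73 reads (9.49%). The highest and second peaks lay in exon 1 of the same transcript, and the third in exon 1 of another. With starts merged within 40 bases, Ppp1r18 thus had more than 1 large peak, while Prr36, Cd248 and Pcbp1 had 1 each. This contrast depends on the merge distance. With starts merged within 10 bases, the highest peak held 61.8% of the antisense reads in Cd248, 44.6% in Pcbp1, 86.6% in Prr36 and 21.8% in Ppp1r18. Sense reads of Ppp1r18 were few at the highest peak, with 4 in it or within 50 bases, and more around the second, with 27.

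Ppp1r18 has an annotated antisense gene, Ppp1r18os, on the minus strand (35860918 to 35866886). No read was given to it in either orientation, and 0 reads allow for up to 3. Its annotated 5′ end lay 267 bases from the leading antisense start of Ppp1r18, and 20 bases from the leading start of the second peak. Both of these starts lay upstream of the annotated beginning of Ppp1r18os. In all, 85 antisense reads (11.1%), among them those of the third peak, started inside its span without being given to it. Reads that fit its transcripts in sense would have been given to it, so these 85 did not match its annotated exons equally well. The count of 0 reads thus covers its annotated exons only. The distinct antisense reads of Ppp1r18 had a median of 73.5% C and T, against 48.3% of its transcript, the widest such gap among the 6 genes. A low-complexity base lay within 50 bases of the leading start in the peaks of 314 and of 73 reads, and not in the highest peak.

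Mid1 encodes a RING-type ubiquitin ligase of the TRIM family that sits on microtubules. It lies on the X chromosome (169685199 to 170005736, plus strand), at the pseudoautosomal boundary in laboratory mice. Of its 685 antisense reads, 649 (94.7%) fell in 1 peak of 253 bases in the downstream untranslated region of the last exon, exon 10 (169989319 to 169989571), with 58 start positions. The leading start, 169989323, had 101 reads, and a second one 156 bases on, 169989479, had 84 reads. The stretch is a tandem repeat: shifted by 31 bases against itself, 173 of 255 bases (67.8%) were the same, although dustmasker marked none of it. Of the antisense reads of Mid1, 546 (79.7%) matched several places within the gene equally well, and were listed at 1 of them, so that their exact position in the repeat is not known.

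Only 23.5% of the antisense reads of Mid1 matched without a mismatch, against 86.5% to 94.3% in the other 5 genes. Of the sense reads of Mid1, 48 of 68 lay in the same repeat, on 8 start positions. At least 94 further antisense reads matched Mid1 and another gene equally well and were not counted. Of 5 annotated genes that overlap Mid1 on the other strand, none had a read in either orientation. The nearest to the peak, Gm15247, begins 2384 bases from the leading start. Most antisense reads counted for Mid1 thus had their best match in a repeat of its last exon. None started inside an annotated gene on the other strand. With 1 further mismatch allowed, 570 of the 685 still matched no other gene. Introns and intergenic sequence were not searched, so whether these reads came from copies of the repeat elsewhere was not tested.

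**Figure D3:**
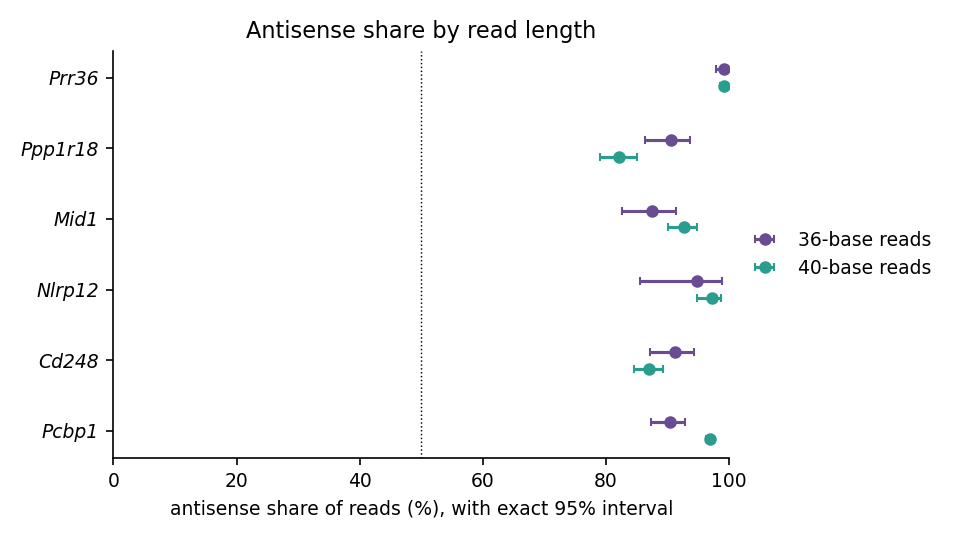
Antisense share of each gene in reads of 36 and of 40 bases, with exact 95% intervals; the dotted line marks 50%. All 12 intervals lie above 50%, and the lowest point is Ppp1r18 in 40-base reads, at 82.2%.

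Which runs or libraries gave the reads of 36 and of 40 bases is not named in the labels, so agreement between them is only a description. All 6 genes were called antisense in the 36-base reads, against 12.0% of 2057 nuclear genes, and in the 40-base reads, against 14.6% of 7870. In the 6 genes, 13.7% (Nlrp12) to 32.2% (Ppp1r18) of antisense reads were of 36 bases, against 14.5% of the antisense reads of all nuclear genes. The leading start was the same base in both read lengths in Pcbp1 (86525268) and in Nlrp12 (3218836, with 3 reads of 36 bases), and the leading starts of Prr36 and of Cd248 lay 1 base apart. The leading starts differed by 247 bases in Ppp1r18 and by 156 bases in Mid1. Most Mid1 antisense reads matched several places in the repeat and were listed at the lowest coordinate. Its difference may therefore come from this listing, which was not tested. In Pcbp1, 89.3% of the 36-base and 98.8% of the 40-base antisense reads began at positions found in both. In Nlrp12 those shares were 43.6% and 36.8%.

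Nlrp12 encodes a NOD-like receptor that dampens inflammatory signalling in myeloid cells. It lies on chromosome 7 (3218784 to 3249740, minus strand), and the downstream untranslated region of its last exon, exon 10, overlaps the miR-290 to miR-295 cluster on the plus strand, a microRNA cluster highly expressed in mouse embryonic stem cells. The cluster holds 7 annotated plus-strand hairpins (Mir290a, Mir291a, Mir292, Mir291b, Mir293, Mir294 and Mir295), of which Mir290a lies just beyond the annotated end of Nlrp12. Of the 401 antisense reads of Nlrp12, 392 (97.8%, 95.8% to 99.0%) started between the start of the first hairpin and the end of the last (3218626 to 3220841). The RNA that gave them has the strand of the cluster.

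The mature microRNAs of these hairpins are shown because the antisense reads of Nlrp12 lie around them (RefSeq, GRCm38.p6, plus strand). Capitals mark the seed, bases 2 to 8, with which a microRNA pairs to its targets. The first 3 share the seed AAGUGCU and the last 3 share the seed CUCAAAC. Over the 13 mature microRNAs of the cluster taken from RefSeq, 5 share the 6 bases AAGUGC and 5 share CUCAAA. The 3p microRNA of Mir292 was not among these 13, so it is left out of the counts.
miR-291a-3p at 3218968-3218989: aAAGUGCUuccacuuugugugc
miR-294-3p at 3220691-3220712: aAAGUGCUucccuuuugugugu
miR-295-3p at 3220815-3220837: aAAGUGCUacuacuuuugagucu
miR-290a-5p at 3218639-3218660: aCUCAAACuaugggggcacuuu
miR-292a-5p at 3219200-3219221: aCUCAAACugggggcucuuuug
miR-293-5p at 3220356-3220377: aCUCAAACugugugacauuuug

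The reads lay between the hairpins and hardly on them. A read lying wholly in a hairpin would be given to the hairpin gene in sense, so it could not count as antisense of Nlrp12. A hairpin was touched by 26 antisense reads of Nlrp12. The mean depth, the number of antisense reads over a base, was 0.468 over the 476 hairpin bases inside Nlrp12 and 8.14 over the 1582 bases between them. The hairpin genes themselves had no sense read (0 reads allow for up to 3). Reads of fewer than 26 bases were not searched, so free mature microRNAs, at 22 to 24 bases, could not be found.

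The spacers differed among themselves. The mean depth was 19.8 between Mir290a and Mir291a, 20.03 between Mir291a and Mir292, and 6.76 between Mir291b and Mir293, the longest spacer with 782 bases. It was 1.65 between Mir292 and Mir291b, 3.22 between Mir293 and Mir294, and 2.25 between Mir294 and Mir295. Over the hairpins, it was 2.24 in Mir293, 0.238 in Mir294, 0.220 in Mir292, 0.0759 in Mir291b, and 0 in Mir291a and Mir295. Of the hairpins, Mir293 was thus the only one above the shallowest spacer. The peak in front of Mir292 reached its first bases: 16 reads began there, on 2 positions, and ran away from the hairpin into the spacer. The 6 leading bases of each read, left out of the match, are not counted in these depths.

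**Figure D4:**
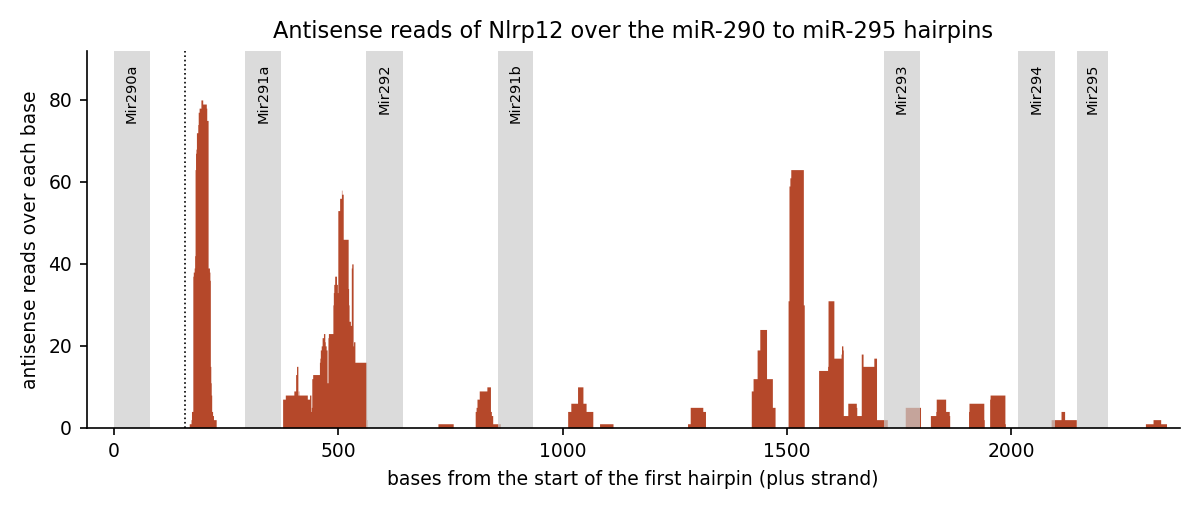
Number of antisense reads of Nlrp12 over each base, by distance from the start of the Mir290a hairpin on the plus strand; grey bands are the 7 hairpins and the dotted line is the annotated end of Nlrp12. The depth reaches 80 reads in the first spacer, 58 in front of Mir292 and 63 in front of Mir293, and is 0 over Mir291a and Mir295.

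In Nlrp12 the reads matched the annotated sequence well. Of the 401 antisense reads, 352 (87.8%) had no mismatch, and the 65 antisense reads that matched Nlrp12 and other genes equally well all lay outside the hairpin cluster. No start held more than 36 reads (8.98%), at 3218836, so that the signal rested on 79 positions. The 2 antisense starts with most reads after it, 3220162 and 3220164, had 33 and 30 reads. No base of the highest Nlrp12 peak was low-complexity. Outside the cluster there started only 9 antisense reads and 3 of the 13 sense reads of the gene.

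Across the 6 genes, the antisense reads formed broader peaks than in most coding genes. The highest peak had 16 to 63 start positions (median 42) and was 75 to 423 bases wide (median 150). In Mid1, 79.7% of the antisense reads matched several places in the gene. Its start positions and width therefore depend on where those reads were listed. Over the 2664 nuclear coding genes with at least 50 antisense reads, the median was 3 start positions and 10 bases. A highest peak with at least 10 positions was found in 6 of the 6 genes and in 321 of the 2664 (12.05%). These values rest on the merging of starts within 40 bases. With starts merged within 10 bases, an alternative chosen after seeing the data, 3 of the 6 genes and 167 of the 2664 (6.27%) had such a peak. The highest peak then had 6 to 38 positions (median 11) over 7 to 67 bases (median 22) in the 6 genes, and a median of 2 positions over 4 bases in the 2664. With the wider merging, of these 2664 genes, the 6 included, 2 had more start positions in their highest peak than Cd248, 3 more than Prr36 and 107 more than Pcbp1, the lowest of the 6. The 6 genes also had more antisense reads, with a median of 879.5 against 96, and the part of this in the width of the peaks was not tested.

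**Figure D5:**
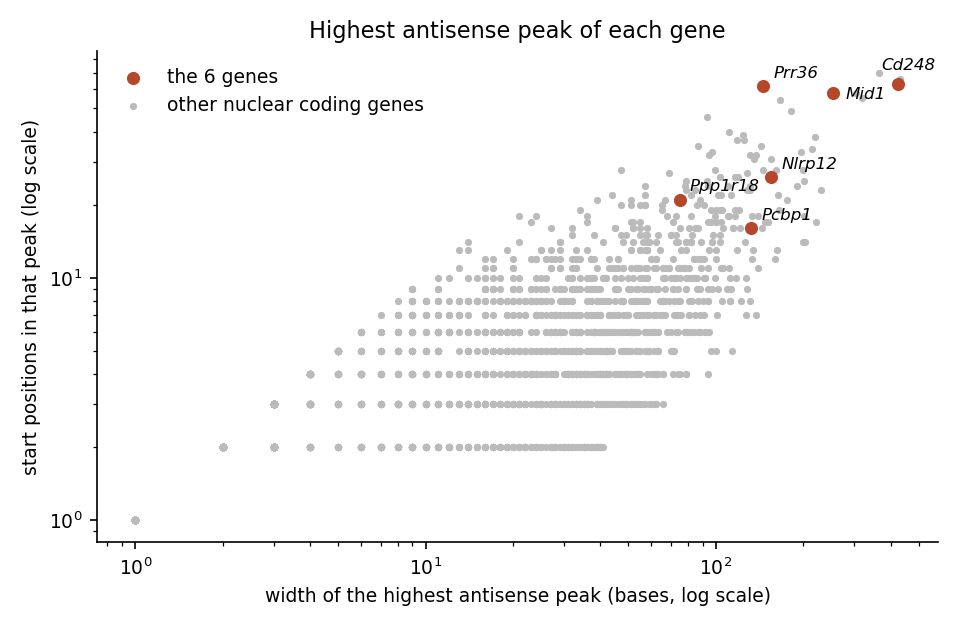
Width of the highest antisense peak of each gene in bases and the number of start positions in it, both on log scales, for the 6 genes (large points) and the other nuclear coding genes with at least 50 antisense reads (small points). The 6 genes sit at 75 to 423 bases and 16 to 63 positions, and the median over all 2664 genes is 10 bases and 3 positions.

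The leading start was in coding sequence in 3 of 6 and in 50.7% of the 2664 genes, in the downstream untranslated region in 2 of 6 and in 28.9%, and in the upstream untranslated region in 1 of 6 and in 6.42%. A low-complexity base lay within 50 bases of the leading start in 0 of 6, whose interval reaches 45.9%, and in 19.1% of the 2664 genes. Over the 12 peaks of the 6 genes with at least 5% of the gene's antisense reads, 2 had one within 50 bases (16.7%, 2.09% to 48.4%) and 1 had one under the read itself (8.33%). At the leading start of the highest peak, C and T made up 56.7% to 73.3% of the read in the 6 genes (median 65.7%). Over the 2664 genes the median was 52.9% (quartiles 43.3% and 60%). The 4 genes with several exons had 2 antisense reads across an exon junction among 3852 (0.0519%), against 10.1% of the antisense reads of nuclear coding genes. Their sense reads crossed a junction in 0 of 240 (up to 1.53%), against 16.9% in nuclear coding genes. The highest peaks of all 4 lay within a single exon.

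Few of the genes opposite had reads of their own. Of the 15 annotated genes that overlap 1 of the 6 genes on the other strand, Evi5l and 1600020E01Rik had sense reads, and the other 13 had no read in either orientation. Among 45 relatives by gene family, 21 had at least 50 reads, and the antisense interval lay above 50% in 1 (Prr11, with 59 antisense reads and 5 sense reads) and below 50% in 18, beside 15.7% of all nuclear genes above 50%. In the remaining pair, Ppp1r9b with 145 antisense and 150 sense reads and Prr12 with 45 and 38, the interval held 50%. Pcbp2, the closest relative of Pcbp1, had 79 antisense reads and 135 sense reads, Nlrp6 had 2 and 82, and Thbd, a membrane glycoprotein related to Cd248, had 128 and 202.

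The genes most like the 6 were the other coding genes with most antisense reads among 197 whose antisense interval lay above 50% by both reads and start positions. They were Klf5, a transcription factor gene active in embryonic stem cells, with 2374 antisense reads and 366 sense reads, and Gm14296, with 2284 antisense reads and 35 sense reads. After these came Gstz1, an enzyme gene of tyrosine breakdown, with 1137 antisense reads and 16 sense reads, Marcksl1 with 979 and 440, and Stx11 with 970 and 24. In this order by antisense reads, Pcbp1 ranked 1, Prr36 ranked 4, Cd248 ranked 6, Ppp1r18 ranked 11, Mid1 ranked 12 and Nlrp12 ranked 19. The leading start held 8.98% to 30.1% of the antisense reads in the 6 genes. It held 19.2% in Gstz1, 23.0% in Stx11, 39.5% in Gm14296, 45.8% in Klf5 and 49.4% in Marcksl1, so that the ranges overlap.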

How the data were processed

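The authors deposited 1 table of distinct read sequences and their counts, with no header, no coordinates and no column tied to a library. The deposited counts are whole reads per sequence, not scaled to depth. The aligner and the settings of any read filter are not given in the sources used here, and the submitters' processing notes name mm9. The deposited counts carry the terms WT, BR, uniq, noribo and nohomop in their name, with no further account of them. The terms noribo and nohomop may stand for the removal of ribosomal and homopolymer reads. WT and BR may stand for wild type and biological replicate, but no label says so. Any effect of such filtering on the low-complexity shares was not tested. Coordinates here are those of GRCm38 (GENCODE M21).

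Reads of at least 26 bases were searched after the 6 leading bases were dropped, with bwa 0.7.19, up to 2 mismatches, no gaps and up to 1000 placements. A gene received a read if the read's best placements were all on it, in sense (with antisense placements on overlapping genes allowed) or in antisense. Sense reads are the reverse complement of the RNA. Where genes overlap, sense placements thus took precedence, and introns and intergenic sequence were not searched. The cells of all libraries but the Ezh2-null one are labelled as partly M. castaneus. Where reads come from such cells, strain differences can use up mismatches. In 40000 simulated reads, 86.3% returned to their gene and strand, 12.0% matched several genes, 1.42% went to a gene overlapping theirs in the opposite orientation and 0.24% to a wrong gene or strand.

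Shares carry exact Clopper-Pearson 95% intervals (scipy 1.17.1). Starts within 40 bases were merged into peaks, low complexity was marked with dustmasker 1.0.0, and a junction read had at least 5 bases on each side. No group could be compared in 1 pool, so no test was run. The genes, the relatives and the marker lists were chosen with earlier results of these data known. Named are the 6 genes, genes overlapping them or within 5000 bases, the 5 further coding genes with most antisense reads among those called by reads and positions, and relatives with at least 50 reads. Of the 7 chosen genes, 1 is not reported here, and counts over the genes leave it out. Alternatives changed how reads were counted, the mismatches, read length, leading bases, other matches, minimum reads, merge distance and window.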

Additional observations from a re-analysis of the deposited data

How the results depend on the processing

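Each antisense share was recomputed under 10 alternatives, 60 in all, and stayed above 50% in all 60 (61.5% to 99.3%). Shares that moved beyond the counting interval were as follows. With each distinct sequence counted once they were 98.6% in Prr36, 81.8% in Ppp1r18, 94.5% in Nlrp12, 80.6% in Cd248 and 88.0% in Pcbp1. With each start position counted once they were 94.9% in Prr36, 66.7% in Ppp1r18, 84.3% in Mid1, 92.9% in Nlrp12, 61.5% in Cd248 and 68.8% in Pcbp1. Without mismatches they were 88.0% in Mid1 and 98.6% in Nlrp12. In 36-base reads they were 90.5% in Ppp1r18, 87.4% in Mid1, 91.2% in Cd248 and 90.3% in Pcbp1, and in 40-base reads 97.0% in Pcbp1. With no leading bases dropped the share was 85.1% in Mid1. With all placements they were 81.2% in Ppp1r18 and 78.3% in Nlrp12. Without the leading start they were 83.9% in Cd248 and 94.6% in Pcbp1. Of nuclear genes, 1399 were called at a minimum of 50 reads, against 2567 at 20, 442 at 200, 390 by start positions, 806 by distinct sequences and 814 among genes with no gene on the other strand. Merging starts within 10 bases lowered the share in the highest peak in all 6 genes, to 86.6% in Prr36, 61.8% in Cd248, 51.5% in Mid1, 44.6% in Pcbp1, 21.8% in Ppp1r18 and 19.95% in Nlrp12. It also left 3 of the 6 genes, against 6, with at least 10 start positions in that peak, a comparison chosen after seeing the data. The cause of these moves was not tested. No paired analysis was possible because the table is 1 pool, and no library could be left out. Placing reads on the whole genome was not run.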
